A study of Mus musculus with 15 samples.

Results

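A set of 10 genes for enzymes that remove superoxide and peroxides were examined in mouse hearts: the superoxide dismutase genes Sod1, Sod2 and Sod3, the catalase gene Cat, the glutathione peroxidase genes Gpx1, Gpx3 and Gpx4, the peroxiredoxin genes Prdx3 and Prdx5, and Txn2, which encodes the thioredoxin of mitochondria. They were chosen by name, and every probe that carried one of these symbols in the platform annotation was taken, which gave 15 of 45281 probes and 9 of the 10 genes. Prdx5 matched no probe of that annotation and is not analysed here. Of the 15 probes, 13 were bright enough to be tested, and each of the 9 genes had at least 1 of them.

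Superoxide dismutases turn superoxide into hydrogen peroxide, and catalase, glutathione peroxidases and peroxiredoxins turn peroxides into water or alcohols. Sod1 works with copper and zinc in the cytosol, Sod2 with manganese in the mitochondrial matrix and Sod3 outside the cell. Doxorubicin, an anthracycline chemotherapy drug, carries a quinone that can take an electron from the respiratory chain and pass it to oxygen, which makes superoxide, and heart muscle, rich in mitochondria, is the tissue in which this side effect of the drug limits its use.

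RNA of the myocardium, the muscle of the heart, was measured in 15 male C57Bl/6J mice aged 10 weeks, on 1 Illumina BeadChip array each. The 5 PBS mice were injected with saline buffer, the 5 DOX mice with doxorubicin, and the 5 VEGF-B+DOX mice received AAV9-VEGF-B, an adeno-associated virus that delivers vascular endothelial growth factor B, 7 days before doxorubicin. Hearts were taken 20 hours after the last injection. There was no group with an empty virus or with the virus alone, so virus and growth factor cannot be told apart, and the promoter that drives the transgene is not given in the sources used here. The treatment label of the VEGF-B+DOX samples names the virus and leaves out doxorubicin, which their titles and the description of the series give.

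Values are log2 intensities, quantile-normalized between arrays by the authors, with a median of 6.92 on every array. The lowest values crowd around 6.80, the background, which was not subtracted, so the folds given are too small, and those of dim probes the most. Markers of heart muscle cells were bright, with Tnnc1 at 14.55 to 14.88, Actc1 at 14.40 to 14.79 and Myh6 at 14.02 to 14.71 over the 15 arrays. The arrays PBS 4, PBS 5, DOX 5 and VEGF-B+DOX 5, 4 in all, lay apart from the others on the second principal component (-19.40 to -15.01 against -2.29 to 14.48). Member calls that changed when they were left out or entered as a term are given below. Results for other gene lists and markers are given from the fit of all 15 arrays only. In each comparison a probe was called when its p from limma, adjusted over all 24861 probes tested, was at most 0.05. Folds are log2 differences ± the standard error of that fit, with 5 arrays in each group.

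The promoters of the 4 genes whose signal changed are shown here because Gpx3 and Sod1 stood highest in the same group while Gpx1 and Txn2 followed other patterns. Each run covers 250 bases before and 50 bases after the annotated start in RefSeq (GRCm38.p6), read on the strand of the gene. Capitals mark matches on either strand to the GC box GGGCGG, to TGACNNNGC, the core of the antioxidant response element to which NRF2 binds, and to the TATA box TATAAAA.
Gpx3, chr11:54902604-54902903, plus strand: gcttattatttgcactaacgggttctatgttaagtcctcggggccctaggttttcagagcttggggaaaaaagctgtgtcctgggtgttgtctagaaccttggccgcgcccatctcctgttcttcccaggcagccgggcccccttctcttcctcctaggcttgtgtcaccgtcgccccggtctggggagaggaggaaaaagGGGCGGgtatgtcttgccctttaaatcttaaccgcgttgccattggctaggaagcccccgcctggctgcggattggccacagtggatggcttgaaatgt
Sod1, chr16:90220512-90220811, plus strand: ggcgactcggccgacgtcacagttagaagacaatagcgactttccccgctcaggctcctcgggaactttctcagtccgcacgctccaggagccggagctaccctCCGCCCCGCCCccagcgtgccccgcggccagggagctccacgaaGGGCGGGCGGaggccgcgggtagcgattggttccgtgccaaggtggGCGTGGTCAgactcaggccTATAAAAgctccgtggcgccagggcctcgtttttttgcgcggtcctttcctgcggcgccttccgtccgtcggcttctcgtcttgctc
Gpx1, chr9:108338830-108339129, plus strand: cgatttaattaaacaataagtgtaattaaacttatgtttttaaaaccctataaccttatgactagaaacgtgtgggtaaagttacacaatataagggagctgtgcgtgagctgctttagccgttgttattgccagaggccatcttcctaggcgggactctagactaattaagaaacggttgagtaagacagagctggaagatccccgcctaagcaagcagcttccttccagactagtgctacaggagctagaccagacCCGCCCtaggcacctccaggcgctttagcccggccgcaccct
Txn2, chr15:77928945-77929244, minus strand: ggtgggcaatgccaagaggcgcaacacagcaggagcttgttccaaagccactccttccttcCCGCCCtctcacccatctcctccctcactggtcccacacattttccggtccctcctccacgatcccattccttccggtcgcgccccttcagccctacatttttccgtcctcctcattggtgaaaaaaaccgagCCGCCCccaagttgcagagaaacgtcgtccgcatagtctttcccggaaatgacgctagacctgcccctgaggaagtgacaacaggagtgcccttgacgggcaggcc
The GC box was found in at least 1 promoter of each of the 9 genes with an entry, Prdx5 included, and in 35.7% of all 32851 promoters of the table. A gene was counted when any of its promoters matched, and the shares are per promoter, so the units differ. The 12 promoters of these genes hold 47.0% to 68.3% G or C, beside a median of 52.7% for all promoters. Sod3 is named only. The core of the antioxidant response element was found in 1 of the 9 genes, Sod1, where it starts at base -56 on the opposite strand, and in 12.4% of all promoters. Sod1 was also the 1 gene of the 9 with a TATA box, at base -37, a motif that 5.48% of all promoters hold. In the Sod1 run the GC boxes at bases -146 and -141 overlap by 1 base, as do 2 others at -102 and -98 by 2. No match was found in any of the 9 genes for the FOXO motif GTAAACA (3.65% of all promoters), for the oestrogen-related receptor motif TNAAGGTCA (1.28%) or for the hypoxia motif NACGTGC (5.91%), nor for the NF-kB (1.63%) and glucocorticoid receptor (0.00913%) motifs. The NRF1 motif was found in 1 gene, Gpx4, and in 4.6% of all promoters. A match describes letters in these windows and not a bound site.

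DOX hearts were first set against PBS hearts, which tests the drug without the vector. Gpx3, whose protein is secreted and clears peroxides outside the cell, was 1.48 times higher in DOX hearts, with a log2 fold of 0.57 ± 0.11 (adjusted p = 0.0310). It was the 1 of 13 member probes that was called, against 0.322% of all probes tested. When only probes above background on all 15 arrays were tested, 0.475% of them were called, with 1 member probe. The signal of Sod1 stood 0.18 ± 0.07 higher (adjusted p = 0.335) and that of Cat 0.27 ± 0.13 higher (adjusted p = 0.504), and neither passed. At an unadjusted p under 0.05 there were 2 of the 13, and 8 and 5 in VEGF-B+DOX against DOX and against PBS. The share of all probes at that unadjusted p was not counted, here or for the lists below. The median over the 13 probes was 0.06, beside 0.00 for all probes.

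The comparison of VEGF-B+DOX with DOX asks what the vector changed in hearts that had received the drug. Gpx3 fell by 0.47 ± 0.11 (adjusted p = 0.00846), Sod1 by 0.30 ± 0.07 (adjusted p = 0.00777) and Txn2 by 0.30 ± 0.08 (adjusted p = 0.0266). These were the 3 of 13 probes called, all of them lower, where 3.17% of all probes were called lower, 6.42% higher and 9.59% in either direction. When only probes above background on all 15 arrays were tested, 15.9% of them were called, with 4 member probes. The median over the 13 probes was -0.15, beside -0.02 for all probes, and 11 of the 13 had a value below 0. The DOX arrays enter both this comparison and the first one, so a gene that read high on them tends to stand high in the one and low in the other.

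The comparison of VEGF-B+DOX with PBS sets the pretreated hearts against hearts without drug. Gpx1, which reduces hydrogen peroxide with glutathione in the cytosol and mitochondria, rose by 0.32 ± 0.07 or 1.25 times (adjusted p = 0.00573), and Txn2 fell by 0.27 ± 0.08 (adjusted p = 0.0434). These were 2 of 13 probes called, beside 11.4% of all probes, 6.72% higher and 4.71% lower. When only probes above background on all 15 arrays were tested, 18.2% of them were called, with 2 member probes. Gpx3 stood 0.10 ± 0.11 above PBS (adjusted p = 0.660) and Sod1 at -0.12 ± 0.07 relative to it (adjusted p = 0.302). The 95% intervals of these differences, -0.13 to 0.32 for Gpx3 and -0.26 to 0.02 for Sod1, hold 0.

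**Figure D1:**
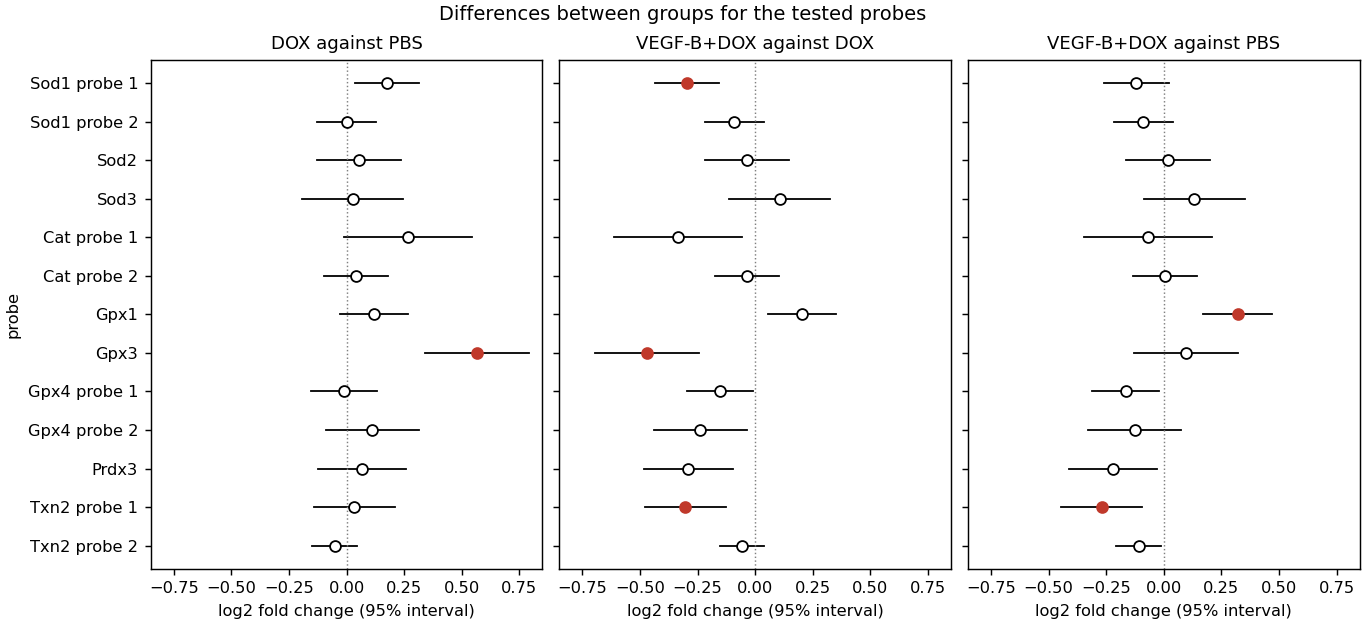
Log2 fold change (x axis) of the 13 tested probes (y axis) in the 3 comparisons, with the 95% interval of the limma fit as a line. Filled red points are called, open points are not; Gpx3 stands at 0.57 and -0.47 in the first 2 comparisons and Gpx1 at 0.32 in the third.

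Among the superoxide dismutases, Sod1 was the 1 gene with a call. Its brightest probe read 12.48, 12.65, 12.56, 12.60 and 12.63 in the PBS hearts, 12.75, 12.71, 12.85, 12.70 and 12.79 in the DOX hearts and 12.50, 12.54, 12.23, 12.47 and 12.58 in the VEGF-B+DOX hearts. All 5 DOX arrays lay above those of both other groups, and the lowest value of all was that of VEGF-B+DOX 3. The exact two-sided permutation test of DOX against PBS gave p = 0.00794, the smallest p that 5 against 5 arrays allow. Groups that do not overlap always give this p, so it adds nothing to the lack of overlap. The exact permutation p-values given here are not adjusted over the 39 such tests. The adjusted p of the fit missed the threshold. Sod1 and Gpx3 were the 2 of 13 member probes whose DOX and PBS arrays did not overlap, as was the case for 1.93% of all probes. In VEGF-B+DOX against DOX the 2 such probes were Sod1 and Gpx1, beside 7.75% of all probes. The Sod1 fall in VEGF-B+DOX against DOX held its call in each of the 27 alternative fits, with folds from -0.33 to -0.19.

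Other Sod1 probes were dim. The mean of one of them was 7.11 ± 0.06 (SD, n = 5) for PBS arrays, 7.11 ± 0.13 for DOX arrays and 7.02 ± 0.09 for VEGF-B+DOX arrays, and its fold in VEGF-B+DOX against DOX was -0.09 ± 0.06 (adjusted p = 0.436). With background subtracted on the linear scale this Sod1 fold was -0.30 (adjusted p = 0.437). The last Sod1 probe lay above the background limit on 1 array of each group and was not tested. The fall on the bright Sod1 probe was not measured by a second bright probe.

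Sod2, the manganese enzyme of the mitochondrial matrix, read 13.52, 13.87, 13.91, 13.50 and 13.58 in PBS, 13.63, 13.65, 13.78, 13.74 and 13.86 in DOX and 13.53, 13.62, 13.65, 13.85 and 13.83 in VEGF-B+DOX hearts. The 3 groups overlapped over most of their range. Its folds were 0.06 ± 0.09 in DOX against PBS (adjusted p = 0.893), -0.04 ± 0.09 in VEGF-B+DOX against DOX (adjusted p = 0.871) and 0.02 ± 0.09 in VEGF-B+DOX against PBS (adjusted p = 0.932). The 95% interval of the first ran from -0.13 to 0.24, which leaves room for a rise or fall of that size. Sod2 is the dismutase nearest to the respiratory chain, and no difference between the groups was detected for it.

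Sod3, the dismutase that is secreted and bound to the matrix around vessels, gave a dim signal above background on all 15 arrays. It ran from 7.26 to 7.80 with a median of 7.42 in PBS, from 7.30 to 7.79 with a median of 7.43 in DOX and from 7.42 to 7.74 with a median of 7.63 in VEGF-B+DOX hearts. The groups overlapped, and its largest fold was 0.13 ± 0.10 in VEGF-B+DOX against PBS (adjusted p = 0.502). Endothelial markers rose in the same hearts, as given below, and the 95% interval of the Sod3 fold ran from -0.09 to 0.35.

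**Figure D2:**
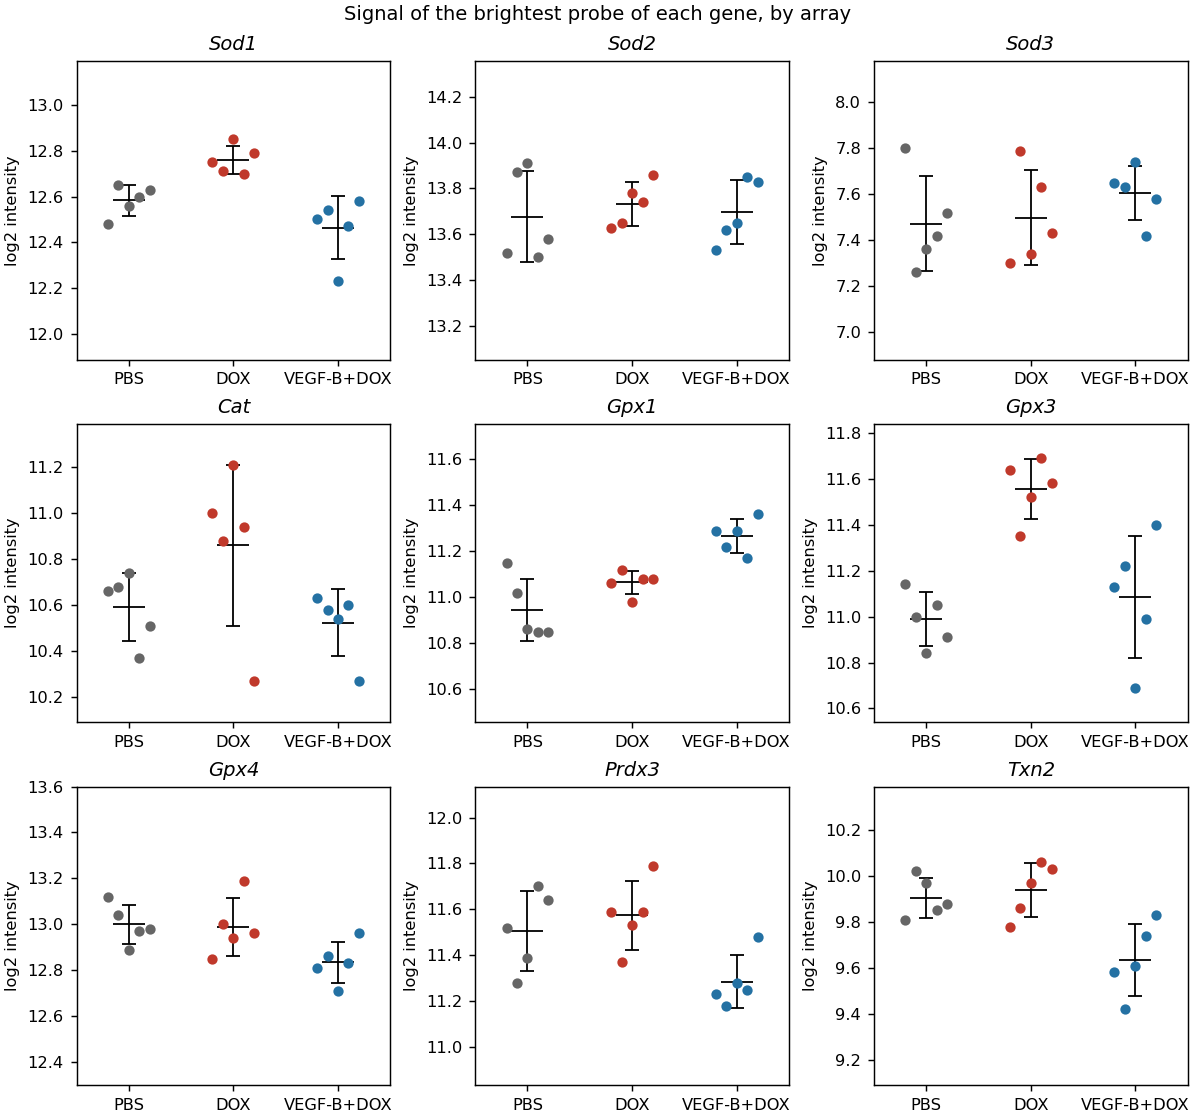
Log2 intensity (y axis) of the brightest probe of each of the 9 genes on every array, by group (x axis), with the mean and SD of the 5 arrays; every panel spans the same height, so that slopes can be compared. The 5 DOX arrays of Sod1 (12.70 to 12.85) and of Gpx3 (11.35 to 11.69) stand above the PBS arrays, and the Gpx1 arrays of VEGF-B+DOX (11.17 to 11.36) above those of the other groups.

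Catalase, the haem enzyme that splits hydrogen peroxide inside peroxisomes, had the widest spread of the 9 genes in DOX hearts, with an SD of 0.35 on its bright probe. The bright Cat probe read 10.66, 10.68, 10.74, 10.37 and 10.51 in PBS, 11.00, 10.88, 11.21, 10.94 and 10.27 in DOX and 10.63, 10.58, 10.54, 10.60 and 10.27 in VEGF-B+DOX hearts. DOX 1 to DOX 4 lay above every array of the other groups, while DOX 5 shared the lowest value with VEGF-B+DOX 5. The fold was 0.27 ± 0.13 in DOX against PBS (adjusted p = 0.504) and -0.34 ± 0.13 in VEGF-B+DOX against DOX (adjusted p = 0.132), and neither passed. The exact permutation test gave p = 0.151 for the first and p = 0.0952 for the second.

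The Cat values moved with the 4 arrays that stood apart. PBS 4, PBS 5, DOX 5 and VEGF-B+DOX 5 read 10.37, 10.51, 10.27 and 10.27, below all of the other 11 arrays, which ran from 10.54 to 11.21. Among those 11 arrays the Cat fold was -0.42 in VEGF-B+DOX against DOX (adjusted p = 0.00360) and 0.31 in DOX against PBS (adjusted p = 0.247). With membership of the 4 arrays as a term in the model, the folds were -0.34 (adjusted p = 0.0113) and 0.19 (adjusted p = 0.380). Without DOX 5 alone they were -0.48 (adjusted p = 0.00387) and 0.42 (adjusted p = 0.0761). Over all 27 alternatives the Cat difference between VEGF-B+DOX and DOX was called in 5, these 3 and the fits with array weights and with the replicate number as a block, and not in 22. The mean over both tested Cat probes gave -0.19 (adjusted p = 0.263). The difference between DOX and PBS was called in 0 of the 27, with adjusted p from 0.0761 to 0.799. A second, dim Cat probe read 6.84 to 7.21 over all arrays and gave folds of 0.04, -0.03 and 0.006 in the 3 comparisons.

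Gpx3 gave the largest change among the glutathione peroxidases, selenium enzymes that use glutathione to reduce peroxides. Its probe read 11.14, 11.00, 10.84, 11.05 and 10.91 in PBS, 11.64, 11.35, 11.52, 11.69 and 11.58 in DOX and 11.13, 11.22, 10.69, 10.99 and 11.40 in VEGF-B+DOX hearts. Every DOX array lay above every PBS array, with DOX 2 the lowest of them. VEGF-B+DOX hearts spread the widest: VEGF-B+DOX 3 read below all PBS arrays and VEGF-B+DOX 5 above DOX 2, so that this group overlapped with both others. The exact permutation test gave p = 0.00794 for DOX against PBS and p = 0.0159 for VEGF-B+DOX against DOX.

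The rise of Gpx3 in DOX hearts kept its size and not its call. Its fold stayed between 0.53 and 0.62 under all 27 alternatives. The call ended without any 1 of PBS 2, PBS 3, PBS 4, PBS 5, DOX 1, DOX 3 and DOX 4 (adjusted p = 0.0715 to 0.129). It also ended among the 11 arrays (adjusted p = 0.191). In the fits where it ended, 0.00402% to 0.113% of all probes were called, beside 0.322% in the main fit. The smallest adjusted p, 8.31e-04, came without DOX 2 and VEGF-B+DOX 3, where 2.72% of all probes were called. The fall in VEGF-B+DOX against DOX held its call in all 27, with folds from -0.55 to -0.37.

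**Figure D3:**
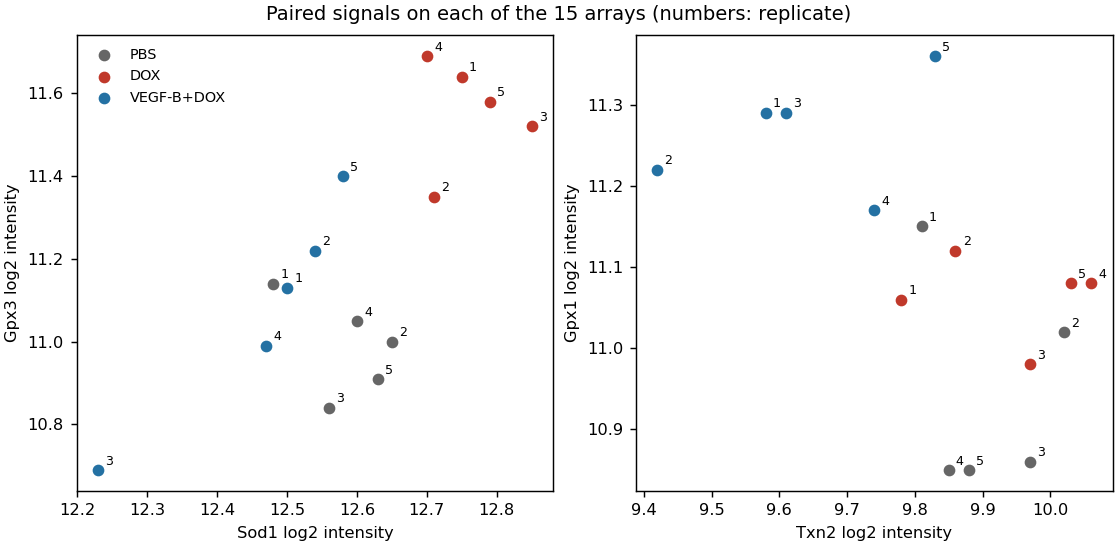
Log2 intensities of Sod1 (x) and Gpx3 (y) on the left and of Txn2 (x) and Gpx1 (y) on the right, 1 point per array, coloured by group and numbered by replicate. The DOX arrays lie at the upper right on the left side, where VEGF-B+DOX 3 (12.23 and 10.69) lies at the lower left; on the right side the VEGF-B+DOX arrays lie at high Gpx1 and mostly low Txn2.

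Gpx1 followed another course. It read 11.15, 11.02, 10.86, 10.85 and 10.85 in PBS, 11.06, 11.12, 10.98, 11.08 and 11.08 in DOX and 11.29, 11.22, 11.29, 11.17 and 11.36 in VEGF-B+DOX hearts. All 5 VEGF-B+DOX arrays lay above every other array, DOX arrays were close to each other, and PBS 1 was the highest of its group. Its fold was 0.12 ± 0.07 in DOX against PBS (adjusted p = 0.605) and 0.20 ± 0.07 in VEGF-B+DOX against DOX (adjusted p = 0.0843, exact permutation p = 0.00794). The call against PBS held in 26 of 27 alternatives and ended among the 11 arrays, at 0.23 (adjusted p = 0.103). That fit left out PBS 4, PBS 5, DOX 5 and VEGF-B+DOX 5, the last of which had the highest Gpx1 signal of all. The call held without PBS 4 (adjusted p = 0.0210), PBS 5 (adjusted p = 0.0187) or VEGF-B+DOX 5 (adjusted p = 0.0146) alone. In VEGF-B+DOX against PBS, 2 of 13 probes had groups that did not overlap, Gpx1 and the dim Txn2 probe, beside 9.7% of all probes.

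Gpx4, which reduces lipid peroxides within membranes and so guards cells from ferroptosis, passed no test. Its brightest probe read 13.12, 13.04, 12.89, 12.97 and 12.98 in PBS, 12.85, 13.00, 12.94, 13.19 and 12.96 in DOX and 12.81, 12.86, 12.71, 12.83 and 12.96 in VEGF-B+DOX hearts. The VEGF-B+DOX arrays lay in the lower part of a range that overlapped with both other groups. The fold of this probe was -0.15 ± 0.07 against DOX (adjusted p = 0.193) and -0.17 ± 0.07 against PBS (adjusted p = 0.138), and a second probe gave -0.24 ± 0.10 (adjusted p = 0.146) and -0.13 ± 0.10 (adjusted p = 0.486). In DOX against PBS the 2 probes stood at -0.01 and 0.11 (adjusted p = 0.980 and 0.761). Gpx4 has several annotated starts, which give forms for the cytosol, mitochondria and nucleus, and which of them each probe reads is not known here. A further probe of this gene was above background on 3 arrays in all and was not tested.

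Prdx3 and Txn2 work as a chain in mitochondria, where the peroxiredoxin reduces hydrogen peroxide and the thioredoxin restores the peroxiredoxin. Prdx3 read 11.52, 11.28, 11.39, 11.70 and 11.64 in PBS, 11.59, 11.37, 11.53, 11.59 and 11.79 in DOX and 11.23, 11.18, 11.28, 11.25 and 11.48 in VEGF-B+DOX hearts. In VEGF-B+DOX hearts, 4 of the 5 arrays lay below all DOX arrays, and VEGF-B+DOX 5 lay within their range. The fold against DOX was -0.29 ± 0.09 and just missed the threshold (adjusted p = 0.0528, exact permutation p = 0.0159). It passed in 13 of 27 alternatives, among them the fit with the 4 arrays as a term (adjusted p = 0.00431) and that of the 11 other arrays (adjusted p = 0.0309). Against PBS it stood at -0.22 ± 0.09 (adjusted p = 0.136), and DOX and PBS differed by 0.07 ± 0.09 (adjusted p = 0.868).

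Txn2 was the 1 member called in both comparisons of the pretreated hearts. Its bright probe read 9.81, 10.02, 9.97, 9.85 and 9.88 in PBS, 9.78, 9.86, 9.97, 10.06 and 10.03 in DOX and 9.58, 9.42, 9.61, 9.74 and 9.83 in VEGF-B+DOX hearts. Of the VEGF-B+DOX arrays 4 lay below every other array, and VEGF-B+DOX 5 lay among the others. The fall was by 0.30 against DOX and by 0.27 against PBS, with exact permutation p = 0.0159 for both, while DOX and PBS differed by 0.03 ± 0.08 (adjusted p = 0.942). The call against DOX ended without any 1 of DOX 3, DOX 4, DOX 5, VEGF-B+DOX 1, VEGF-B+DOX 2 and VEGF-B+DOX 3 (-0.30 to -0.25, adjusted p = 0.0531 to 0.0847), with no filter on dim probes (adjusted p = 0.0663) and with only these groups in the fit (adjusted p = 0.0608). The call against PBS ended in 10 of 27 alternatives, with adjusted p up to 0.132 without VEGF-B+DOX 2, where the fold was -0.22. A dim Txn2 probe read 6.97 to 7.07 in PBS and 6.80 to 6.96 in VEGF-B+DOX hearts, a fold of -0.11 ± 0.05 (adjusted p = 0.141), with 3 of the 5 VEGF-B+DOX arrays above background. With background subtracted this Txn2 fold was -0.49 (adjusted p = 0.125). With the 4 arrays as a term it was -0.13 (adjusted p = 0.0413), the 1 alternative in which the dim Txn2 probe was called.

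Markers of other cell types differed in signal between the groups. In these samples of whole muscle, fewer cells of a type and less RNA per cell cannot be told apart. Of 10 endothelial markers 9 rose in VEGF-B+DOX against DOX, where 6.42% of all probes were called higher. The mean of that list relative to PBS ran from 0.67 to 0.78 on the VEGF-B+DOX arrays. It ran from -0.07 to 0.07 on the DOX arrays and from -0.06 to 0.07 on the PBS arrays. None of 9 heart muscle cell markers passed limma's test in any comparison, with 1, 1 and 0 at an unadjusted p under 0.05, and the means of that list overlapped, at -0.13 to 0.15 on VEGF-B+DOX arrays and -0.19 to 0.16 on DOX arrays. Of these 9 markers 5 read 14.02 to 14.88, near the top of the scale at 14.93, where a difference may not show. Pln, Ryr2 and Tnni3 lay lower, at 11.48 to 13.55, and Myh7 at 7.09 to 7.73. The part of cell makeup in the results for Sod1, Gpx3, Txn2 and Gpx1 was not tested.

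Markers of blood and immune cells are given beside Gpx1 and Gpx3. Of all probes, 0.225% were called higher in DOX against PBS. In VEGF-B+DOX against PBS 6.72% were called higher and 4.71% lower. The mean of 9 macrophage markers ran from -0.22 to 0.25 in PBS, from 0.08 to 0.28 in DOX and from 0.18 to 0.69 in VEGF-B+DOX hearts, and 3 of 9, C1qb, C1qc and Fcgr1, rose in VEGF-B+DOX against PBS. In each of the other comparisons 0 of 9 passed limma's test, with 4 at an unadjusted p under 0.05 in DOX against PBS and 5 in VEGF-B+DOX against DOX. On PBS arrays 1 to 5 the macrophage mean was 0.25, 0.13, -0.07, -0.22 and -0.09, and Gpx1 read 11.15, 11.02, 10.86, 10.85 and 10.85. On DOX arrays 1 to 5 the mean was 0.24, 0.28, 0.16, 0.08 and 0.09, and Gpx1 read 11.06, 11.12, 10.98, 11.08 and 11.08. On VEGF-B+DOX arrays 1 to 5 the mean was 0.69, 0.37, 0.23, 0.18 and 0.52, and Gpx1 read 11.29, 11.22, 11.29, 11.17 and 11.36. Of 6 tested erythroid genes, which mark red cells, 3 fell in VEGF-B+DOX against PBS, led by Hba-a1 at -0.87 ± 0.24 (adjusted p = 0.0227). Their mean for PBS 1 to PBS 5 was 0.24, -0.14, -0.01, -0.08 and 0.003. For DOX 1 to DOX 5 it was -0.43, 0.22, -0.74, -0.38 and -0.45. For VEGF-B+DOX 1 to VEGF-B+DOX 5 it was -0.90, -0.74, 0.27, -0.82 and -0.55. DOX 2 and VEGF-B+DOX 3 had the highest erythroid mean and the lowest Gpx3 signal of their groups, with Gpx3 at 11.35 and 10.69. They are the arrays left out together in the fit with the smallest Gpx3 adjusted p. PBS 1 had the highest erythroid mean and the highest Gpx3 signal of its group, with Gpx3 at 11.14. Of 7 neutrophil markers, S100a8 and S100a9 rose in DOX against PBS and in VEGF-B+DOX against PBS. The mean of the neutrophil list ran from -0.06 to 0.05 in PBS, from 0.30 to 0.64 in DOX and from 0.17 to 0.52 in VEGF-B+DOX hearts. In DOX against PBS the median of that list was 0.16, with S100a8 at 1.18 and S100a9 at 1.34. Relative to PBS, Gpx3 stood at 0.57 in DOX hearts and at 0.10 in VEGF-B+DOX hearts. The part of these cells in the Gpx1 and Gpx3 results was not tested.

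Fibroblast markers and those of smooth muscle and pericytes, cells near which Sod3 is deposited, also moved. Of all probes, 6.42% were called higher in VEGF-B+DOX against DOX. In VEGF-B+DOX against PBS 6.72% were called higher and 4.71% lower. Of 10 fibroblast markers 2 rose in VEGF-B+DOX against DOX, Col1a1 and Mfap5, and the means of the list overlapped between groups, at -0.07 to 0.38 in VEGF-B+DOX and -0.23 to 0.10 in DOX hearts. Of 9 smooth muscle and pericyte markers 5 rose in that comparison, with means of 0.14 to 0.20 in VEGF-B+DOX and -0.32 to 0.02 in DOX hearts. In VEGF-B+DOX against PBS, where Sod3 had its largest fold, 2 genes rose and 1 fell in each of these lists. The genes that fell were Pdgfra, by 0.37 ± 0.08 (adjusted p = 0.00608), and Myh11, by 0.53 ± 0.12 (adjusted p = 0.00784). In DOX against PBS the pericyte gene Kcnj8 fell by 0.35 ± 0.07 (adjusted p = 0.0419). It was the 1 of 9 smooth muscle and pericyte markers called there, where 0.0965% of all probes were called lower. Sod3 passed in no comparison, and the part of these cells in its values was not tested.

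**Figure D4:**
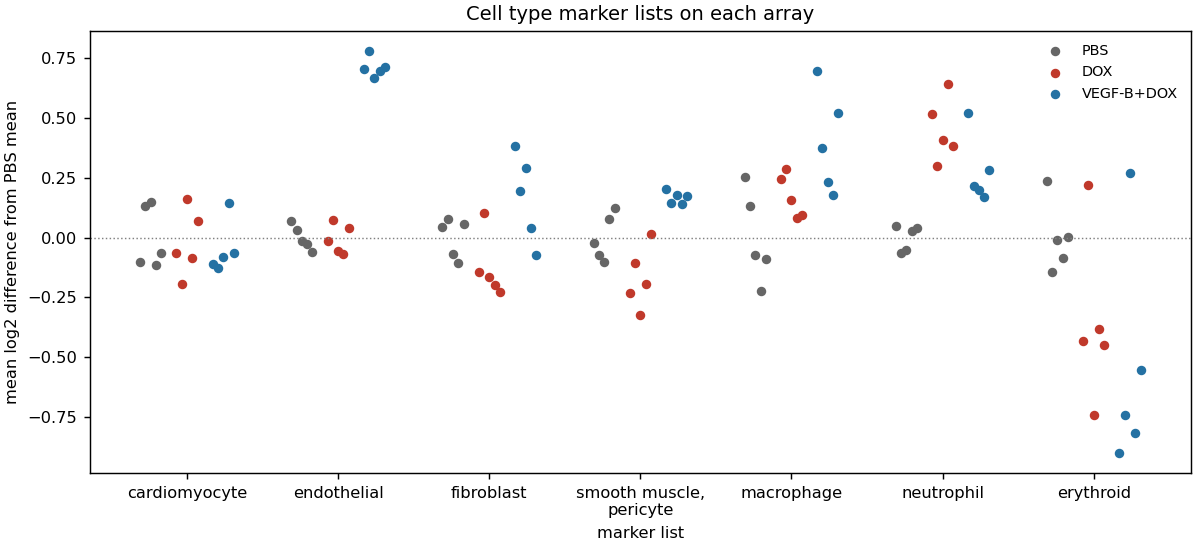
Mean log2 difference from the PBS mean (y axis) of 7 marker lists (x axis), 1 point per array, coloured by group. Endothelial markers stand at 0.67 to 0.78 on the VEGF-B+DOX arrays and at -0.07 to 0.07 on the DOX arrays, while the heart muscle cell lists overlap.

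Enzymes that supply or share the work of these genes, their regulators and their compartments were examined in 9 lists. The lists were chosen with earlier results of these data known, some genes stand in more than 1 list, and each gene was represented by its brightest tested probe. In DOX against PBS 0 genes passed limma's test in any of the 9 lists, with 0.322% of all probes called. An unadjusted p under 0.05 was found for 18 of the 118 list entries there. It was found for 36 in VEGF-B+DOX against DOX and for 38 in VEGF-B+DOX against PBS. The share of all probes at that p was not counted, so no excess can be read from these numbers. In VEGF-B+DOX against DOX 3 of the 118 entries rose and 15 fell, where 6.42% of all probes were called higher and 3.17% lower. In VEGF-B+DOX against PBS 2 rose and 14 fell, beside 6.72% of all probes called higher and 4.71% lower. These shares are over all probes tested, dim ones included, while the lists use the brightest probe of each gene. In DOX against PBS the NRF2 target list had the highest median of the 9 lists, 0.15 over 21 genes. The sulfiredoxin gene Srxn1, which repairs oxidised peroxiredoxins, stood at 0.33 ± 0.09 there (adjusted p = 0.152) and Osgin1 at 0.28 ± 0.08 (adjusted p = 0.179). In the same comparison the glutathione synthesis gene Gclm stood at 0.36 ± 0.14 (adjusted p = 0.328). Xdh, whose enzyme makes superoxide and hydrogen peroxide from purines, stood at 0.78 ± 0.24 (adjusted p = 0.208).

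Mitochondrial genes of several roles were among the calls in VEGF-B+DOX against DOX, where 3.17% of all probes were called lower. Against PBS that share was 4.71%. Of 15 genes for thioredoxin, glutaredoxin and repair enzymes 2 fell and 13 did not pass: Txnrd2, the reductase that restores Txn2, by 0.30 ± 0.08 (adjusted p = 0.0151) and Msrb2, which repairs oxidised methionine in mitochondria, by 0.27 ± 0.08 (adjusted p = 0.0321). Both also fell against PBS, by 0.27 ± 0.08 and 0.31 ± 0.08. The list median was -0.15 against DOX. Of 15 other matrix genes 3 fell against DOX and 12 did not pass; those that fell were the proteases Clpp (-0.28 ± 0.06) and Lonp1 (-0.34 ± 0.08) and the DNA polymerase Polg (-0.30 ± 0.08), with a list median of -0.17. Nnt, which makes NADPH for glutathione and thioredoxin in mitochondria, stood at -0.36 ± 0.11 against DOX (adjusted p = 0.0523) and fell by 0.39 ± 0.11 against PBS (adjusted p = 0.0324), the 1 of 9 glutathione and NADPH genes called there. Maob, which makes hydrogen peroxide at the outer mitochondrial membrane, was the 1 of 8 oxidant-making genes called, and fell by 0.45 ± 0.13 against DOX (adjusted p = 0.0279) and by 0.49 ± 0.13 against PBS.

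Peroxisome genes, from the compartment of catalase, fell in 4 of 18 cases against DOX and in 6 of 18 against PBS, where 3.17% and 4.71% of all probes were called lower. Pex11a, which drives the division of peroxisomes, fell by 0.52 ± 0.10 and 0.70 ± 0.10, and Pxmp2, a channel of their membrane, by 0.40 ± 0.10 and 0.58 ± 0.10. Pex7, an import receptor, fell by 0.31 ± 0.08 against DOX and the fatty acid transporter gene Abcd3 by 0.49 ± 0.09 against PBS. Abcd3 stood at -0.38 ± 0.09 in DOX against PBS (adjusted p = 0.0607), where Cat stood at 0.27. The list medians were -0.11 and -0.16.

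Other peroxidases did not follow Gpx3. Of 8 tested, Gpx7 and Prdx4, both of the endoplasmic reticulum, rose by 0.41 ± 0.07 and 0.41 ± 0.10 in VEGF-B+DOX against DOX (adjusted p = 4.31e-04 and 0.0140). Gpx7 also rose by 0.43 ± 0.07 against PBS. Of all probes, 6.42% were called higher against DOX and 6.72% against PBS. In DOX against PBS the peroxiredoxin gene Prdx1 stood at 0.13 ± 0.06 (adjusted p = 0.446) and Prdx4 at -0.15 ± 0.10 (adjusted p = 0.663). None of 10 genes for metal and selenium delivery passed limma's test in any comparison, and 0, 1 and 0 of them had an unadjusted p under 0.05 in the order given above, with Ccs, the copper chaperone of Sod1, at 0.10 ± 0.06 in DOX against PBS (adjusted p = 0.642) and Sephs2, which makes the selenium donor of the Gpx enzymes, at -0.22 ± 0.08 in VEGF-B+DOX against DOX (adjusted p = 0.0921).

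Of 21 NRF2 targets 4 fell in VEGF-B+DOX against DOX, where 3.17% of all probes were called lower and 6.42% higher. Among them were the glutathione transferase genes Gstp1 by 0.35 ± 0.07 and Gstm1 by 0.44 ± 0.11 and the carbonyl reductase gene Cbr1 by 0.32 ± 0.07. The list median was -0.13. Among 14 regulators in the same comparison Rela, a subunit of NF-kB, rose by 0.27 ± 0.06. Esrra, a receptor that drives mitochondrial genes, fell by 0.21 ± 0.07 (adjusted p = 0.0445). Against PBS, Sirt3, a deacetylase that acts on Sod2 in mitochondria, fell by 0.28 ± 0.09 (adjusted p = 0.0388), while Sod2 itself stood at 0.02.

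**Figure D5:**
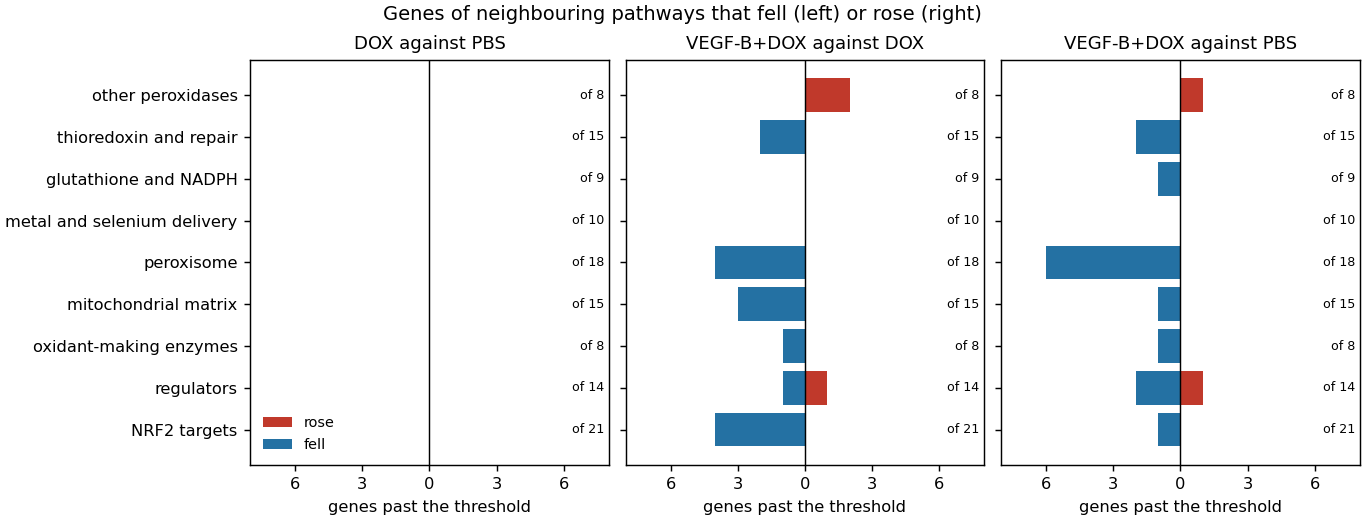
Number of genes past the threshold (x axis) in 9 neighbouring lists (y axis) in the 3 comparisons, with genes that rose drawn to the right and genes that fell to the left, and the number tested at the right edge. No gene passed in DOX against PBS; peroxisome genes fell in 4 and 6 of 18 cases in the other comparisons.

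The genes most like each member were sought by Pearson correlation over the 15 arrays between brightest probes of 12750 genes, as a description with no test, since group differences and array effects enter it. For Gpx3 they were Psme4 (0.93), a proteasome activator gene, and Wipf3 (0.88). For Sod1 they were Cep63 (0.92) and Cdpf1 (0.91), for Gpx1 the folate receptor gene Folr2 (0.91) and Samsn1 (0.91), and for Txn2 the mitochondrial import gene Grpel1 (0.92) and Rangrf (0.92). For Cat they were Ythdf3 (0.93) and Prepl (0.92), which kept 0.92 and 0.93 when the group means were removed. For Prdx3 they were Polr2f (0.94) and Map10 (0.92), for Gpx4 Dnlz (0.89) and Nme4 (0.86), for Sod2 Zbtb39 (0.87) and Mdn1 (0.87), and for Sod3 Rab35 (0.84) and Slk (0.84).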

How the data were processed

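Values were the authors' deposited table of log2 intensities of 45281 probes. That they are log2 was read from their range, 6.52 to 14.93, and the quantile normalization by the authors from sorted values that differed between arrays by at most 0.01. The software is not given in the sources used here. TRIsure and NucleoSpin RNA II served for the extraction and an Ambion kit for the labelling, per the labels' protocols. A raw table, whose 15 sample columns match no label, was not used.

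The background was the mode of all values, 6.80, with an SD of 0.0693 from the values up to it. Tests covered probes brighter than its 95% limit, 6.91, on 5 or more of the 15 arrays. The 3 group means were estimated in 1 fit (limma 3.58.1, R 4.3.3) with a variance trend, which left 12 residual degrees of freedom, with Benjamini-Hochberg adjustment over 24861 probes. The members, lists and rule for naming genes were chosen with earlier results of these data known. The rule names every member on all its probes, for each list up to 3 called genes of smallest p or else 2 of smallest p, and for each member the 2 genes of highest correlation. Exact permutation tests compared 5 with 5 arrays over 252 splits for all 39 combinations of probe and comparison. The procedure was tested on simulated data. Replicate numbers were not taken to pair the arrays, since the deviations of same-numbered arrays correlated from -0.41 to 0.63 and not all correlations were over 0.1. Those of number 5 (0.32 to 0.63) and number 1 (0.15 to 0.33) were, and 3 of the 4 arrays apart on the second component carry number 5. Python 3.11.15 and matplotlib 3.10.9 were used for figures and promoter motifs. The 27 alternatives changed the background, filter, variance model, probe summary, arrays or block.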

Additional observations from a re-analysis of the deposited data

Results flagged for a closer look

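The gap between an extreme array and its neighbour was compared with the range of its group for each of the 13 tested probes in each of the 3 groups, 39 cases in all, of which chance alone would mark about 1 in 20. VEGF-B+DOX 5 read 10.27 on the bright Cat probe, where the nearest other array of its group read 10.54. It is 1 of the 4 arrays that lay apart on the second principal component, and all 4 read low on this probe. DOX 1 read 7.12 on the dim Txn2 probe, where the nearest other DOX array read 6.94, close to the background limit of 6.91. The bright Txn2 probe read 9.78 on the same array, the lowest of its group.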

How the results depend on the processing

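Every comparison was refitted under 27 alternatives, 2 of which, those on the 4 arrays with low second component scores, were chosen after seeing the data. Of 1032 refitted values of single probes, 958 kept their direction and their side of the threshold, 27 lost a call, 22 gained one and 25 changed sign. The 958 include 25 of the dim Sod1 probe in DOX against PBS, from -0.049 to 0.026. Its main fold of 0 has no direction to keep. The number of member probes called in DOX against PBS, 1, ran from 0 to 1 when single arrays were left out and was 0 among the 11 arrays. The share of all probes called changed too. It was 0.322% in the main fit, 0.00804% without DOX 1, 1.96% without DOX 2 and 0.00402% among the 11 arrays. In VEGF-B+DOX against DOX the number of member probes called was 3, from 2 to 4 without single arrays. It was 2 with no filter and with only the groups compared. Of all probes, 9.59% were called in the main fit, 4.2% with no filter and 7.6% with only the groups compared. The member number was 5 without a variance trend, with array weights, with the replicate number as a block, among the 11 arrays and with the 4 arrays as a term. In that order 11%, 14.5%, 10.4%, 10.2% and 13.3% of all probes were called. In VEGF-B+DOX against PBS the member number was 2, from 1 to 2 without single arrays, with 11.4% of all probes called in the main fit. The member number was 1 with no filter, with only the groups compared, without DOX 2 and VEGF-B+DOX 3 and among the 11 arrays. The shares of all probes called were 5.16%, 11%, 11.2% and 8.6% in that order. With array weights, with the replicate number as a block and with the 4 arrays as a term the member number was 3. In that order 14.8%, 12.6% and 13.9% of all probes were called. The 3 with the 4 arrays as a term include both tested Txn2 probes. With the replicate number as a block Cat (adjusted p = 0.0464) and Prdx3 (adjusted p = 0.0108) passed in VEGF-B+DOX against DOX and Prdx3 (adjusted p = 0.0390) in VEGF-B+DOX against PBS. The block changed no other call, and 5 of 15 arrays correlated best with an array of their own number. The cause of these changes was not tested. All 25 changes of sign concerned values near 0 with adjusted p of at least 0.563. For the dim Cat probe they were 0.0025 in VEGF-B+DOX against DOX and -0.003, -0.018, -0.034 and -0.028 in VEGF-B+DOX against PBS (up to 0.037 without single arrays). For Gpx4 in DOX against PBS they were 0.018, 0.023 and 0.05 (down to -0.0625 without single arrays), for Txn2 there -0.016 and -0.009, and for Sod3 there -0.0076, -0.027, -0.002, -0.047, -0.007 and -0.047 (up to 0.108). For Sod2 they were -0.067 in DOX against PBS, 0.0055 in VEGF-B+DOX against DOX (down to -0.0745) and -0.0055, -0.019, -0.024, -0.004, -0.019, -0.014 and -0.10 in VEGF-B+DOX against PBS (up to 0.0785). With background subtracted on the linear scale and an offset of 16, the number of calls among members was 1, 3 and 2 in the 3 comparisons, but the folds of dim Sod1 and Txn2 probes grew over 3 times, to -0.30 and -0.26 in VEGF-B+DOX against DOX and -0.33 and -0.49 in VEGF-B+DOX against PBS, and passed in neither. Signal over background limits the dim probes of Sod1, Cat and Txn2.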
